A study of Mus musculus with 8 samples.

Results

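The trace amine-associated receptors (TAARs) described here are the products of 10 mouse genes, Taar2, Taar3, Taar4, Taar5, Taar6, Taar7b, Taar7d, Taar7e, Taar7f and Taar9. The genes were taken by symbol and not by their values, as the clusters mapped to these single symbols, and each has exactly 1 transcript cluster on the array. A transcript cluster is the array's unit for a gene, its probes being spread along the exons. The 10 clusters belong to a table of 35557, of which 23410 carry at least 1 gene symbol and were tested. Taar1, Taar8b and Taar8c also have a cluster of their own, lie outside the set, and are given where the gene cluster is followed along the chromosome.

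TAARs are G-protein-coupled receptors that detect volatile amines, many of them present in urine and decaying food. As with the odorant receptors (ORs), an olfactory sensory neuron (OSN) expresses a single receptor gene, and the neurons that choose a TAAR lie mostly in the dorsal part of the olfactory epithelium. The receptors are coupled to the same cascade as ORs, in which a G protein containing Gnal activates the adenylyl cyclase Adcy3 and the resulting cAMP opens a cyclic nucleotide-gated channel. Taar1 is the exception in the family, being expressed in brain and other tissues but not in OSNs. Lhx2 encodes a homeodomain protein with LIM domains, present in OSNs and in the basal cells that give rise to them, and it binds sequences near OR genes.

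Olfactory mucosae were taken from 8 mice of a mixed 129 x C57BL/6J background at postnatal day 26, and each was measured on its own GeneChip. The 4 knockouts were OmpCre:Lhx2(fl/fl), in which Cre can recombine both floxed Lhx2 alleles. The 4 littermate controls could recombine at most 1 allele. Control replicate 1 was Lhx2(fl/+) without Cre, and control replicates 2 to 4 were OmpCre:Lhx2(fl/+). Cre was expressed from a targeted Omp allele, which marks mature OSNs, so all mice that carried Cre, knockouts and controls, also had a modified copy of Omp. Cre was never homozygous, males and females were included, and recombination of Lhx2 is stated to be incomplete. The mouse numbers in the sample titles fall into 3 series, called here title series. Series 5 holds 2 mice of each group, and series 7 and 9 hold 1 of each. Which mice shared a litter is not stated in the sources.

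Lhx2 itself fell by 0.25 ± 0.06 (SE) on the log2 scale, to 84.0% of control (adjusted p = 0.0383), and its lowest control (12.29) lay above its highest knockout (12.17). This call was lost when any array except knockout replicate 3 was left out (adjusted p of 0.0566 to 0.130). Of 17 mature OSN markers, 15 were called lower and none higher, with a median change of -0.49. Over all clusters tested, 6.29% were called lower and 2.1% higher. The mean level of the marker list was 12.55 to 12.58 in the controls and 11.88 to 11.98 in the knockouts. Omp, the marker whose locus carries Cre, fell by 0.84 ± 0.15. Its value in control replicate 1, without Cre, lay 0.43 above the mean of the 3 controls with Cre. Against those 3 alone Omp fell by 0.73. In tissue RNA, fewer cells of a type and less RNA per cell cannot be told apart. Markers of other cells did not move this way: none of the 5 measured basal cell and progenitor markers, 3 sustentacular cell markers, 4 macrophage markers or 2 vomeronasal neuron markers passed the test in either direction, with list medians from 0.03 to 0.13.

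All 10 TAAR clusters were lower in the knockouts, with log2 changes from -2.34 to -0.75, and in every one the lowest control array lay above the highest knockout array. All 10 passed the test (adjusted p of 2.59e-06 to 0.00155, limma with Benjamini-Hochberg adjustment over all named clusters), while 6.29% of all clusters tested were called lower and 2.1% were called higher. Separation of all knockouts below all controls occurred in 7.83% of all clusters. The median change of the 10 was -1.87, or 72.6% lower, beside a median of 0.05 over all named clusters and of -1.04 over the 1024 OR clusters. The decrease was uneven: Taar3, Taar4 and Taar9 were left at about 20% of the control value, whereas Taar5, the receptor for trimethylamine, was left at 59.3%.

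**Figure D1:**
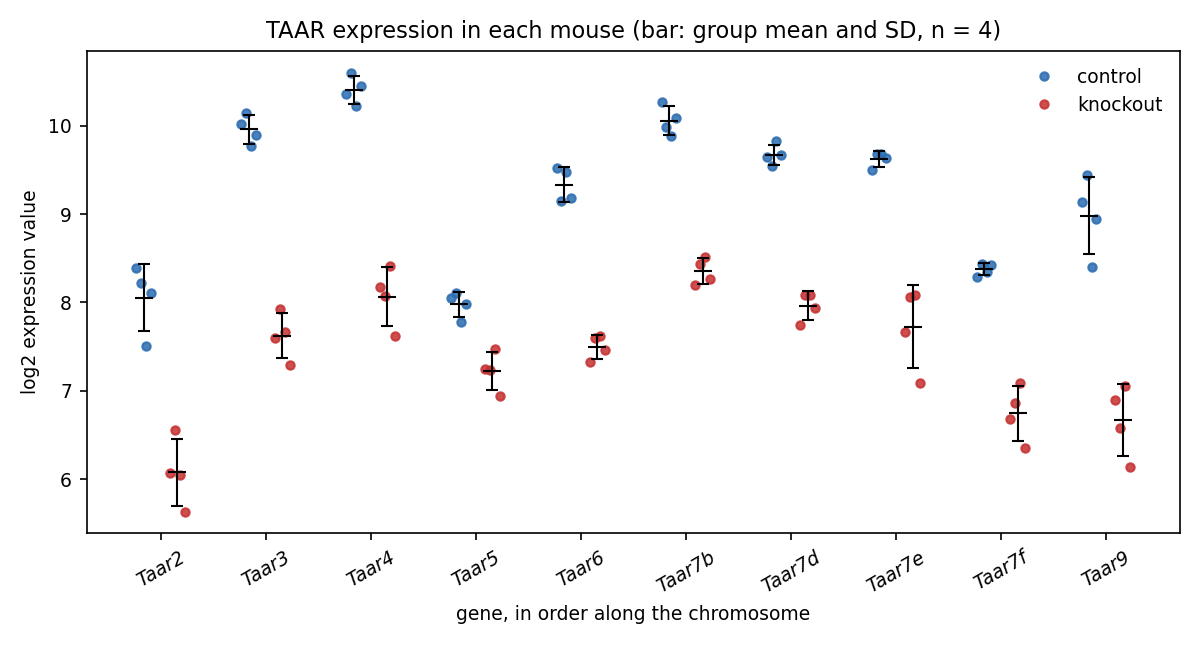
Log2 expression value (y axis) of each TAAR gene (x axis, in order along the chromosome) in the 4 littermate controls (blue points) and the 4 Lhx2 knockouts (red points), with bars at the group mean ± SD. Every blue point lies above every red point of the same gene, with the narrowest gap, 0.31, in Taar5 and the widest, 1.85, in Taar3; levels of different genes come from different probes and cannot be set against each other.

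The genes at the start of the cluster, Taar2, Taar3 and Taar4, were among the most reduced. Taar2 was at log2 values of 8.39, 8.21, 7.51 and 8.10 in control replicates 1 to 4 and at 6.07, 6.55, 6.05 and 5.63 in knockout replicates 1 to 4. Control replicate 3 stood below the other controls, yet still 0.96 above the highest knockout. The mean of Taar2 fell by 1.98 ± 0.22, to 25.4% of control (adjusted p = 0.000172). Taar3, a receptor for isoamylamine and related primary amines, was at 10.02, 10.14, 9.77 and 9.90 in the controls and at 7.60, 7.92, 7.67 and 7.30 in the knockouts. Both groups were tight and far apart, with a fall of 2.33 ± 0.13, to 19.8% of control (adjusted p = 2.80e-06). Taar4, a receptor for beta-phenylethylamine, a compound of carnivore urine, was at 10.36, 10.60, 10.22 and 10.45 in the controls and at 8.17, 8.07, 8.41 and 7.62 in the knockouts. It fell by 2.34 ± 0.15 (adjusted p = 6.23e-06), the largest change of the 10, and knockout replicate 4 was the lowest of the knockouts in Taar2, Taar3 and Taar4 alike.

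Taar5, next along the chromosome, changed least. It was at 8.05, 8.10, 7.77 and 7.98 in the controls and at 7.24, 7.24, 7.47 and 6.94 in the knockouts. The groups were separate, but knockout replicate 3 came within 0.31 of control replicate 3, the lowest control. The mean of Taar5 fell by 0.75 ± 0.11 (95% confidence interval -1.01 to -0.50, adjusted p = 0.00155). Among the 1024 OR clusters, 719 (70.2%) had a larger decrease than Taar5, and 5 of the 17 mature OSN markers fell at least as far.

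Taar6 and the Taar7 genes, a recently duplicated group of close relatives, changed by similar amounts. Taar6 was at 9.52, 9.15, 9.48 and 9.18 in the controls and at 7.32, 7.60, 7.62 and 7.46 in the knockouts. Each group spanned less than the distance between them, and the mean fell by 1.83 ± 0.11, to 28.1% of control (adjusted p = 3.19e-06). Taar7b was at 10.27, 9.98, 9.88 and 10.08 in the controls and at 8.20, 8.43, 8.52 and 8.27 in the knockouts, and fell by 1.70 ± 0.10 (adjusted p = 3.45e-06). Taar7d was at 9.64, 9.55, 9.82 and 9.67 in the controls and at 7.74, 8.08, 8.09 and 7.94 in the knockouts, and fell by 1.71 ± 0.09 (adjusted p = 2.59e-06). These neighbours were thus left at 30.8% and 30.6% of control. Taar7e was at 9.50, 9.68, 9.68 and 9.64 in the controls and at 7.66, 8.06, 8.09 and 7.08 in the knockouts. Its controls varied little while knockout replicate 4 lay well under the other knockouts, and the mean fell by 1.90 ± 0.19, to 26.8% of control (adjusted p = 0.000106). Taar7f, a receptor for N-methylpiperidine, was at 8.29, 8.43, 8.34 and 8.43 in the controls and at 6.68, 6.86, 7.09 and 6.35 in the knockouts. It fell by 1.63 ± 0.13, to 32.4% of control (adjusted p = 2.64e-05), so the 4 Taar7 changes lay within 0.27 of each other. Taar7 sequences are similar enough for probes to be shared, so their values may not be independent.

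Taar9, at the far end of the cluster, was at 9.14, 9.44, 8.40 and 8.94 in the controls and at 6.89, 6.58, 7.06 and 6.14 in the knockouts. Its controls were the most scattered of the 10 genes (SD of 0.44), with control replicate 3 the lowest. It fell by 2.31 ± 0.24, to 20.1% of control (adjusted p = 0.000119).

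The stretches before the coding starts of 5 of these genes are shown because they differ in the size of the decrease and in the motifs they hold. Taar3 fell strongly and Taar5 weakly, Taar2 holds 1 of the motifs searched, and Taar7d and Taar7e are the most alike of all the stretches. RefSeq (mouse assembly GRCm38.p6) supplied windows for 9 of the 10 genes, not Taar4. Each window has 300 bases, 250 before the annotated gene start and 50 from it on. In all 9 the annotated start coincides with the ATG of the coding sequence, so these windows lie before the start of translation and need not hold a transcription start site. The windows printed are chr10:23938322-23938621 (Taar2), chr10:23949308-23949607 (Taar3), chr10:23970456-23970755 (Taar5), chr10:24026972-24027271 (Taar7d) and chr10:24037364-24037663 (Taar7e), all on the plus strand and written 5′ to 3′, with the letters TAATGA in capitals.
Taar2: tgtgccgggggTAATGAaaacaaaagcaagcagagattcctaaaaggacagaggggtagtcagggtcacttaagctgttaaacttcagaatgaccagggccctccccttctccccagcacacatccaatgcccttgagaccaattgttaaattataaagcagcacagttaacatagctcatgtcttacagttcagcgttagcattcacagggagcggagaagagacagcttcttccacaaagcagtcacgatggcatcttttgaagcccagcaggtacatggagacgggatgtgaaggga
Taar3: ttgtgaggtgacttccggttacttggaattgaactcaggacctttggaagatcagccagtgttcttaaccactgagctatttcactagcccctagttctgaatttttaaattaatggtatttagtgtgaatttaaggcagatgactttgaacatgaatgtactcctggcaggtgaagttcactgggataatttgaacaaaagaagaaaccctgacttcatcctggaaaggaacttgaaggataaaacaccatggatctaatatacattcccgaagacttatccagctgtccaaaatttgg
Taar5: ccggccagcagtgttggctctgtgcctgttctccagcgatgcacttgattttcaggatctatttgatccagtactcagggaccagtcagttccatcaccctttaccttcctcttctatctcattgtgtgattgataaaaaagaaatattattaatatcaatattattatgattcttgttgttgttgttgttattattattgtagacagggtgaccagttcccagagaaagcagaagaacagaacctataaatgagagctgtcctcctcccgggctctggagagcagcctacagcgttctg
Taar7d: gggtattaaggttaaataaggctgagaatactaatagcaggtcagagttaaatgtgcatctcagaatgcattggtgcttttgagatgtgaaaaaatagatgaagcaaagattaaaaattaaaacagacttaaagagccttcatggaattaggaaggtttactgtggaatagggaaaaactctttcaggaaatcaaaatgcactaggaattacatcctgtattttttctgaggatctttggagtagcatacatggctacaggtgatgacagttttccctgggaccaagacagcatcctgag
Taar7e: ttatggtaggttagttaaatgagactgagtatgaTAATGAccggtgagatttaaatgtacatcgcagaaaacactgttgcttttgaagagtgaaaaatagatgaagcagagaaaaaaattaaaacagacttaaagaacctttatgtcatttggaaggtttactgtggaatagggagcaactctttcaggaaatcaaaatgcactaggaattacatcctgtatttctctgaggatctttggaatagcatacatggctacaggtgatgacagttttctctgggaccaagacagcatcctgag

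Searched on both strands were TAATTA and TAATGA, core letters that homeodomain factors bind, and CCCNNGGG, the core letters of sites for the Ebf factors. No window held more than 1 match, so no matches overlapped. TAATGA was present in 4 of the 9 windows (44.4%), beginning 239 bases before the start in Taar2, 216 before it in Taar7e, 107 before it, on the minus strand, in Taar7f, and within the coding sequence in Taar7b. By comparison, 9.99% of all 27025 promoter windows of this length and 28.7% of the 864 OR windows held it. In those comparison windows it was not checked whether the annotated start is the coding ATG, so they may be stretches of another kind. TAATTA was in none of the 9 windows (5.31% of all windows, 18.5% of OR windows), nor was CCCNNGGG (13.4% and 3.01%). The windows were rich in A and T, with a median of 62.0% in the TAAR genes, 65.0% in ORs and 47.3% over all genes. Genes with the motif and genes without it were both among those with large decreases: Taar3 and Taar9 have none of the 3, like Taar5. Between Taar7 genes the windows were 60.9% to 86.6% identical over 6 pairs, the highest being Taar7d with Taar7e, and the other 30 pairs were 47.7% to 56.0% identical.

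**Figure D2:**
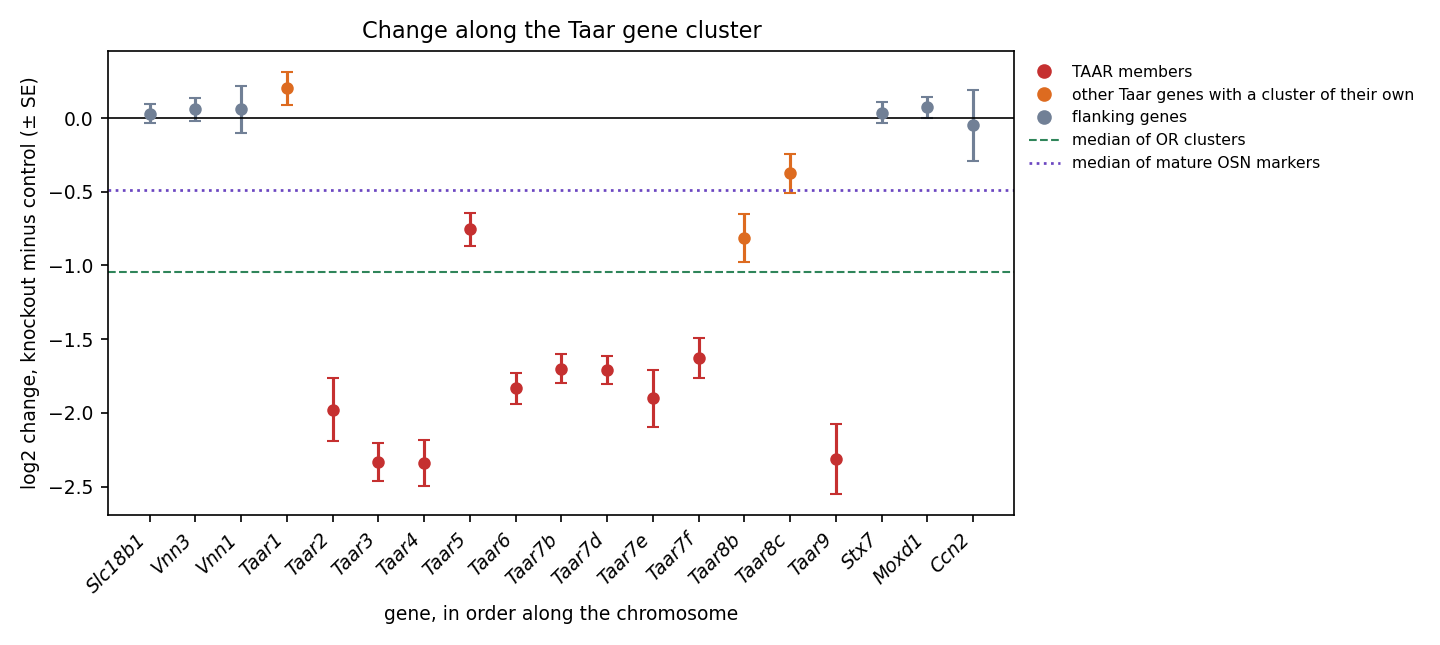
Log2 change, knockout minus control, with SE (y axis) for the TAAR genes (red), the other Taar genes with a cluster of their own (orange) and the 3 nearest genes on each side (grey), in chromosomal order (x axis); the dashed line is the OR median (-1.04) and the dotted line the mature OSN marker median (-0.49). The change falls from about 0 outside the gene cluster to between -1.63 and -2.34 inside it, except at Taar5 (-0.75), Taar8b (-0.81), Taar8c (-0.38) and Taar1 (0.20). Taar1, Taar8b and Taar8c had low signals, with control means of 4.15 to 4.86.

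Along chromosome 10, no decrease was called in the genes on either side of the Taar cluster. The 3 nearest genes with their own cluster before Taar1 are Vnn1 and Vnn3, which encode pantetheinases, and the transporter gene Slc18b1. After Taar9 come Stx7, a syntaxin of endosomes, Moxd1 and the matricellular growth factor gene Ccn2. Their changes ran from -0.05 (Ccn2) to 0.07 (Moxd1), and none of the 6 was called in the limma fit. None had an unadjusted p under 0.05 either (lowest 0.334), and their 95% intervals lay within -0.59 and 0.49. Among the 10 TAAR genes of the set, only the interval of Taar5 reached into this range, where it overlaps that of Ccn2.

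The Taar genes outside the set changed unequally, and their signals were low. Control means of Taar1, Taar8b and Taar8c were 4.84, 4.86 and 4.15, below the median of clusters without a symbol (6.98). Signals this low leave little room for a fall, so the sizes of these changes cannot be set against those of brighter genes. Taar1, which OSNs do not use, was at 4.84 ± 0.16 (SD, n = 4) in the controls and at 5.04 ± 0.20 in the knockouts. Its groups overlapped, with a change of 0.20 ± 0.11 (adjusted p = 0.395). Taar8b was at 4.55, 5.27, 4.73 and 4.90 in the controls and at 4.32, 3.85, 4.19 and 3.84 in the knockouts, a fall of 0.81 ± 0.16 (adjusted p = 0.00940) that did not pass in the methods' t-test (adjusted p = 0.0692) or after centring on the mature OSN list (-0.18, adjusted p = 0.301). Taar8c, at -0.38 ± 0.13 (adjusted p = 0.154), was called only with array weights (adjusted p = 0.0371) and when control replicate 3 was left out (adjusted p = 0.0406). The 2 clusters that carry several Taar symbols also fell. The one shared by Taar8a, Taar8b and Taar8c went from 7.33 ± 0.16 (SD, n = 4) to 6.34 ± 0.12, a change of -0.99 ± 0.10 (SE, adjusted p = 6.85e-05), and the one shared by 5 Taar7 genes went from 10.11 ± 0.08 to 8.29 ± 0.16, a change of -1.82 ± 0.09 (adjusted p = 1.35e-06).

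The difference between Taar5 and the other members was examined for all 45 pairs of the 10 genes, by comparing the within-array difference of the paired genes between knockouts and controls in an exact two-sided permutation test over 70 assignments. Taar5 decreased less than each of the other 9, by 0.87 (against Taar7f) to 1.59 (against Taar4). Taar5 was singled out by its small decrease in these same arrays, and the 9 differences all use its values, so they are not independent. All 9 of these differences separated the groups completely and reached the smallest p this design allows (exact p = 0.0286, adjusted over the 45 pairs 0.0804), and none passed after adjustment. Their direction was the same in title series 5, 7 and 9, and their sizes ran from 0.81 to 1.68 when single arrays were left out. Next to each other on the chromosome, Taar4 decreased more than Taar5 by 1.59, and Taar6 decreased more than Taar5 by 1.08. Taar5 also had the lowest control mean of the 10 (7.98), followed by Taar2 (8.05), which fell by 1.98. Low array signal can shrink a log2 change, and whether signal level plays a part in these differences was not tested.

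**Figure D3:**
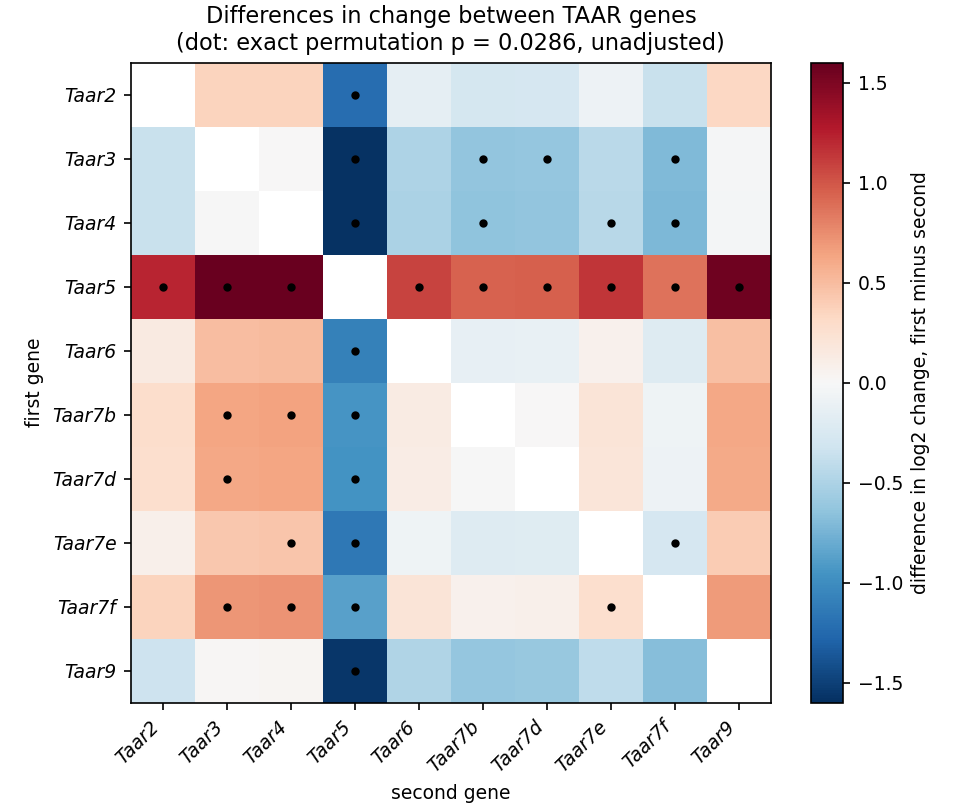
Difference in log2 change between the gene of the row (y axis) and the gene of the column (x axis), with red where the row gene decreased less and blue where it decreased more; dots mark exact permutation p = 0.0286, before adjustment. The row of Taar5 is red throughout, from 0.87 to 1.59, and carries 9 dots, while the squares among Taar6 and the Taar7 genes are pale.

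Ordered by size, the decreases ran Taar4, Taar3, Taar9, Taar2, Taar7e, Taar6, Taar7d, Taar7b, Taar7f, Taar5. This order was taken from the same values as the steps within it. Only the step between Taar7f and Taar5 separated knockouts and controls completely (difference of 0.87, exact p = 0.0286, adjusted 0.0804). The steps from Taar4 to Taar3 (0.01, exact p = 0.914), from Taar9 to Taar2 (0.34, exact p = 0.229) and from Taar6 to Taar7d (0.12, exact p = 0.171) did not. Nor did the other 5 steps (exact p of 0.543 to 0.943). Over longer distances, Taar3 decreased more than Taar7b, Taar7d and Taar7f, by 0.62 to 0.71, and Taar4 more than Taar7b, Taar7e and Taar7f, by 0.44 to 0.71, each at exact p = 0.0286. The smallest of these 6 differences, Taar4 against Taar7e (0.44), was 0.33 to 0.52 when single arrays were left out. Its exact p rose to 0.0571 unless the array left out was control replicate 3. The same rise was seen for Taar3 against Taar7d without any 1 of the knockouts. For Taar4 against Taar7b it was seen without control replicate 2 or knockout replicate 4. In total 16 of 45 pairs reached that p, and 0 passed after adjustment. Of the 6 pairs within Taar7, only Taar7e and Taar7f reached it, with a difference of 0.27 (0.19 to 0.35 with each array left out in turn). For this pair exact p rose to 0.0571 when any control was left out and after quantile normalization.

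**Figure D4:**
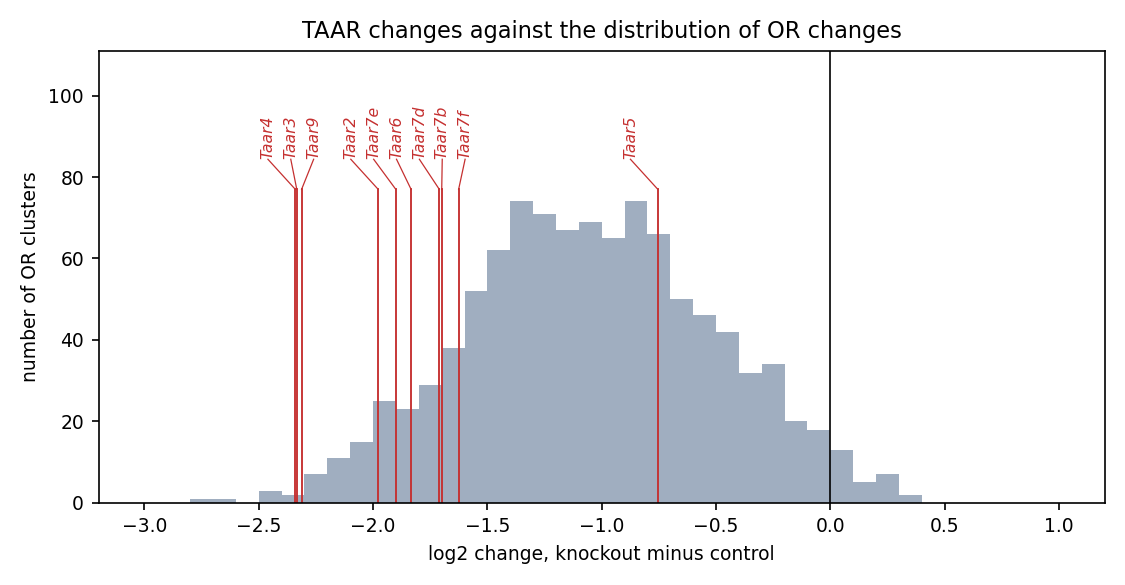
Number of OR clusters (y axis, grey bars) by log2 change, knockout minus control (x axis), with a red line at the change of each TAAR gene. The lines of 9 genes lie to the left of the OR median of -1.04, and that of Taar5, at -0.75, lies to its right.

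Set beside the ORs, the other receptor family of OSNs, most TAARs lay in the strongly decreased part of the distribution. Of the 1024 OR clusters, 854 (83.4%) were called lower and 550 (53.7%) had a change of -1 or below, a size that 9 of the 10 TAARs reached. Only 7 OR clusters had a larger decrease than Taar4, and the same number than Taar3 or Taar9. Taar2, Taar3, Taar4, Taar6, Taar7e and Taar9 were under the 10th percentile of OR changes (-1.75) and stood among the 100 largest decreases of all named clusters, with Taar4 at rank 8. No test of TAARs against ORs as families was made. The OR clusters were not matched to the TAARs by signal level. Low array signal can shrink a log2 change, and its part in these ranks was not tested.

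Mature OSN markers, whose own changes ran from -2.02 to 0.08, were used to ask how much of each decrease remained beyond their mean change. After each array was centred on the mean of the 17 markers, 9 of the 10 TAARs were still called lower, where 3.16% of all clusters were called lower and 93.8% higher, and the median over all named clusters moved to 0.69. The median of the 10 became -1.23, beside -0.40 for ORs. Taar4 (-1.70 ± 0.15), Taar3 (-1.70 ± 0.12) and Taar9 (-1.68 ± 0.23) kept the largest differences, and the smallest among those called was Taar7f (-0.99 ± 0.14). Taar5 was at -0.12 ± 0.11 (95% confidence interval -0.37 to 0.14, adjusted p = 0.335) on this scale. This value depends on the markers: the 17 changed by -0.64 on average, and without Cnga4 and Faim2, the 2 that fell most, Taar5 was at -0.27 ± 0.11 and passed (adjusted p = 0.0422), a choice made after seeing the data. The much longer marker list that the study used for its own scaling was not used here.

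Some mice lay high or low within their group in most TAAR genes. Knockout replicate 4 lay below its group mean in all 10 genes, by a median of 0.36. Knockout replicates 2 and 3 each lay above it in 9 genes, by medians of 0.10 and 0.20. Among controls the median deviations spanned less, from -0.18 in control replicate 3, below its group mean in 7 genes, to 0.09 in control replicate 2. Over the 45 pairs of genes, deviations from the group mean had a median correlation of 0.49 (range -0.41 to 0.95, 8 arrays), a description of genes that share the same RNA samples. Control replicate 1, without Cre, differed from the mean of the 3 controls with Cre by -0.17 (Taar7e) to 0.45 (Taar2) and was higher in 6 of the 10 genes. Against the 3 controls with Cre alone, the changes of the 10 genes ran from -2.36 to -0.73.

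**Figure D5:**
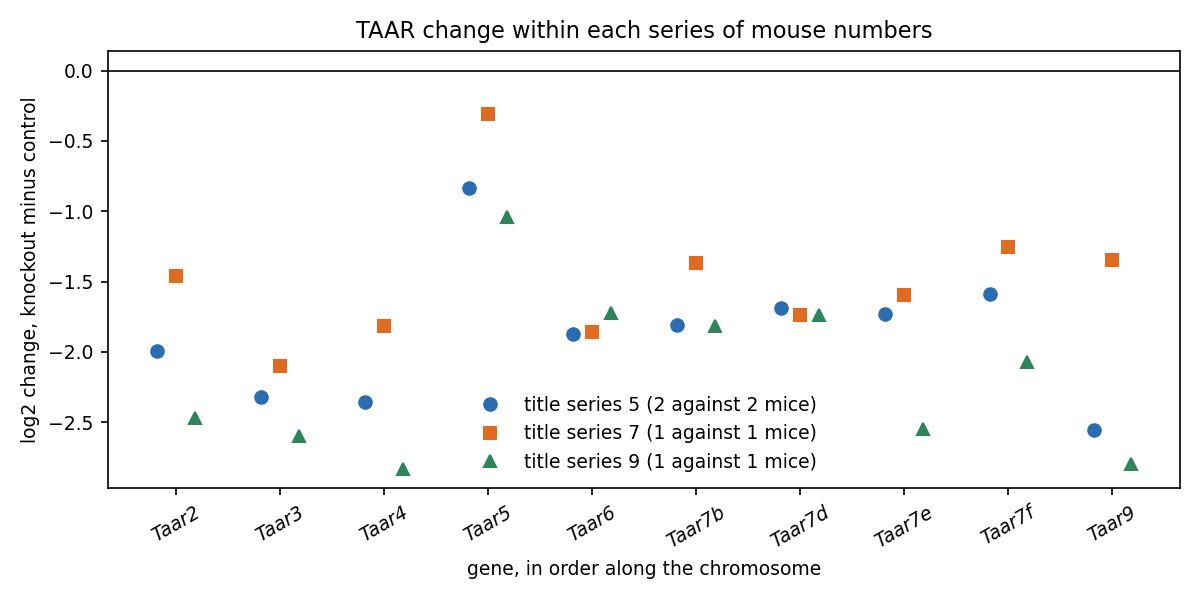
Log2 change, knockout minus control (y axis), of each TAAR gene (x axis) within title series 5 (circles, 2 against 2 mice), 7 (squares, 1 against 1) and 9 (triangles, 1 against 1). All 30 values are below 0, and the gene closest to 0 is Taar5 in each series, at -0.84, -0.31 and -1.04.

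Within the title series the median change of the 10 genes was -1.84 in series 5, -1.53 in series 7 and -2.27 in series 9. The series with the largest decreases holds knockout replicate 4, and the one with the smallest holds control replicate 3 and knockout replicate 3. Taar6 and Taar7d varied least between series (-1.88, -1.86 and -1.72 for Taar6, and -1.69, -1.74 and -1.74 for Taar7d). Taar9 varied most, at -2.55, -1.35 and -2.80. With 1 mouse per group in series 7 and 9, differences between series were not tested.

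Genes of receptor signalling and trafficking in OSNs were also lower, most of them by less than the median TAAR. They were measured in whole mucosa, where neurons with a TAAR cannot be told apart from other OSNs. Of 12 genes of the receptor signalling cascade, 10 were called lower (6.29% of all clusters) and none higher (2.1%), with a median change of -0.49. Of these 12, 8 are also on the mature OSN list. Cnga4, a modulatory subunit of the cyclic nucleotide-gated channel, fell by 2.02 ± 0.12 (adjusted p = 3.12e-06), within the range of the TAARs. Cnga2, the subunit that forms the channel pore, fell by 0.49 ± 0.05 and Ric8b, an exchange factor for Gnal, by 0.53 ± 0.06. The G protein gamma subunit gene Gng13 went from 11.65 to 10.66 (SE of the change 0.11, adjusted p = 0.000181). Adcy3 (-0.98 ± 0.12) and Gnal (-0.21 ± 0.06, adjusted p = 0.0473), the cyclase and the G protein alpha subunit, are named here after their values were seen. Of the 3 genes for receptor trafficking, Rtp2 fell by 0.42 ± 0.06 and Rtp1, a chaperone that brings ORs to the surface, by 0.33 ± 0.07, and Reep1 had a change of -0.10 ± 0.08.

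Of 12 genes tied to receptor gene choice and transcription, 3 were called lower (6.29% of all clusters) and none higher (2.1%), with a median of -0.02. These were Atf5, a factor of the unfolded protein feedback that stabilises receptor choice (-0.43 ± 0.06, adjusted p = 0.000787), Ebf3 (-0.22 ± 0.05, adjusted p = 0.0340) and Lhx2 itself. Not all 3 calls held in the alternatives. Only 1 gene of this list was called lower after array-median centring and when all clusters were tested. The same count was found without control replicate 1, 2 or 4, and without knockout replicate 1, 2 or 4. Of the 3 zone markers, the dorsal enzyme Nqo1 went from 12.27 to 11.12 (SE of the change 0.11, adjusted p = 6.59e-05). The other dorsal marker, Acsm4, was at -0.01 ± 0.08 and the ventral adhesion gene Ncam2 at -0.15 ± 0.13 (adjusted p = 0.982 and 0.609), both named after their values were seen. Of 7 immature OSN markers none was called lower, and the neuronal tubulin Tubb3 rose by 0.41 ± 0.06 (adjusted p = 0.000760).

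Many OR clusters followed the TAARs across the arrays. Over the 8 arrays, the clusters closest to the mean of the 10 TAARs were Olfr1020, Olfr1448 and Olfr1404 among ORs (Pearson r of 0.998 for the first 2 and 0.997 for the third). Outside the receptor families they were Cnppd1, Ube2s, Tom1, Nqo1 and Mslnl (r of 0.990 to 0.994), all of them called lower, with changes from -1.50 (Mslnl) to -0.47 (Ube2s). These 8 arrays form 2 groups, so such r values mostly restate the difference between knockouts and controls. Of the 1024 OR clusters, 691 (67.5%) had r over 0.9, against 346 of 22260 named clusters outside the receptor families. The individual TAAR genes had r of 0.970 (Taar5) to 0.996 (Taar3) with the mean that they form.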

How the data were processed

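Total RNA of 8 olfactory mucosae was hybridised to Affymetrix Mouse Gene 1.0 ST arrays. The deposited log2 values were made by the authors with Affymetrix Expression Console, starting from equal amounts of RNA. The sources used here do not give its version or its background and summarisation settings. The values (2.35 to 14.6) were used as deposited, since array medians lay between 7.87 and 8.00. The study itself rescaled to a far longer list of mature OSN mRNAs, not used here; the alternative on 17 markers is not that step and removes another amount (-0.64). Gene symbols are those of the platform annotation, brought up to date by Entrez ID from a RefSeq table of GRCm38.p6: 21789 clusters had 1 symbol, 1621 several and 12147 none.

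Groups followed the phenotype given per mouse. Knockouts and controls were compared with limma 3.58.1 (lmFit and eBayes, R 4.3.3) without covariates, with Benjamini-Hochberg adjustment over 23410 named clusters and a call at adjusted p under 0.05; ± after a change is its standard error. Pairs of genes were compared by exact permutation. The script was tested on simulated data. Figures used matplotlib 3.10.9. The number of arrays limits the precision. The limma p-values set a group difference against the spread between these mice, an estimate that limma shares in part over all named clusters. Closely related receptors can share probes.

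The TAAR genes, the gene lists and the tests were chosen with earlier results of these data known, so no list or member count is independent evidence. Named were all Taar clusters, Lhx2, Omp, the flanking genes, up to 4 called genes of each list with the smallest p (or the 2 brightest), and the 3 ORs and 5 other genes most like the TAAR mean. Alternatives were array-median, quantile and mature OSN scaling, title series as a block, array weights, the methods' t-test, no dim clusters, all clusters, and leaving out each array.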

Additional observations from a re-analysis of the deposited data

How the results depend on the processing

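Over 19 alternatives each, 187 of 190 values of single TAAR genes kept their direction and their side of the threshold, and 0 reversed; Taar5 made the 3 exceptions. Centred on the mature OSN list it was at -0.12 (adjusted p = 0.335), and among alternatives chosen after seeing the data it was at -0.12 (adjusted p = 0.409) in the methods' t-test on that scale, at -0.0029 (adjusted p = 0.981) centred on the median mature OSN marker, and at -0.27 (adjusted p = 0.0422) without Cnga4 and Faim2. With each array left out in turn all 10 genes stayed called, and the 16 pair differences at exact p = 0.0286 kept their direction. The 9 Taar5 pairs also stayed under 0.05 in that permutation test. Not all other pairs did. Taar3 against Taar7d, Taar4 against Taar7b, Taar4 against Taar7e, and Taar7e against Taar7f rose to exact p = 0.0571 without some arrays. In all, 13 to 17 pairs were under 0.05 in these settings. For Lhx2, centring on array medians gave -0.19 (adjusted p = 0.117), testing all clusters gave -0.25 (adjusted p = 0.0788), leaving out single arrays gave -0.28 to -0.22, and centring on the mature OSN list turned it to 0.39. That centring raises all that changed less than the markers by construction. Then 6 of 6 flanking genes were called higher (93.8% of all clusters), with Ccn2 at 0.59. Of 58 distinct list genes, 5 stayed called lower (3.16% of all clusters), against 21 as deposited (6.29%). Array-median centring changed the split of calls over all clusters to 5.73% lower and 4.39% higher. No paired analysis was possible because the labels give no replicate numbers that link a knockout to a control; with title series as a block all 10 genes stayed called. No group of 4 values held a sample far enough from the others to be singled out. With 4 arrays a group, no pair of genes can pass adjustment over 45 pairs unless more pairs separate completely, and probe sharing among Taar7 genes was not tested.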
